A study of Mus musculus with 8 samples.

Results

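The genes described here encode the parts of oxidative phosphorylation that are made from nuclear DNA. They were taken from the deposited count table as every gene whose name begins with Ndufa, Ndufb, Ndufc, Ndufs, Ndufv, Uqcr, Cox4 to Cox8 or Atp5, with names containing -ps left out. This gave 87 of the 37583 genes in the table. By the protein each gene encodes, 36 belonged to complex I, 8 to complex III, 20 to complex IV and 15 to complex V. The other 8 were not subunits (the complex I assembly factors Ndufaf1 to Ndufaf4, and Cox4nb, Atp5s, Atp5sl and Atp5l2). Atp5l2 fits the rule by name, but is annotated as a processed pseudogene, 99.4% identical to Atp5l. The subunits encoded by mitochondrial DNA were not analysed here.

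RNA was sequenced from liver of C57BL6/CBA mice, all aged 8 months, in 8 libraries. The WT group (2 libraries) was wild type, with no agent named. The PR-SET7_LOBE group (4 libraries) carried the genotype PR-SET7_LX_ALB_CRE, in which the H4K20 methyltransferase PR-SET7 is inactivated by a Cre recombinase driven from the albumin promoter, so that in liver the deletion is made in hepatocytes. The labels do not explain the word LOBE. The DEN_WT group (2 libraries) was wild type and had been injected intraperitoneally at postnatal day 15 with 25 ml per kg of diethylnitrosamine (DEN), a liver carcinogen, at a concentration that the labels do not give. The labels do not say that libraries of a group came from separate animals, and the p-values therefore measure no more than how far these samples lie apart, which can be technical.

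Oxidative phosphorylation takes place in the inner mitochondrial membrane. Complex I (NADH dehydrogenase), complex III (cytochrome bc1) and complex IV (cytochrome c oxidase) pass electrons to oxygen and pump protons, and complex V (ATP synthase) lets the protons flow back through its rotating c ring while its F1 head makes ATP. Liver is rich in mitochondria, and the coactivator PGC-1alpha, encoded by Ppargc1a, together with NRF1, GABP and the estrogen-related receptors, is known for switching on many of these genes.

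Library totals ranged from 7305595 to 16108081 counts. Summed levels of 8 hepatocyte markers lay between 45600 and 159700 CPM (counts scaled to a common library size with TMM factors) in all libraries. The lowest sum was that of PR-SET7_LOBE 3. Of the 8 markers, 7 had negative log2 fold changes in PR-SET7_LOBE against WT (median -0.67) and 6 in DEN_WT against WT (median -0.26). In both comparisons 0 of them passed the test. Among the 6 ductal markers Spp1 made up most of the sum in every PR-SET7_LOBE and DEN_WT library (15.5 and 9.04 CPM in WT, 68.8 to 249 across PR-SET7_LOBE and 383 and 679 for DEN_WT). Krt19 and Krt7 were at most 5.17 CPM in any library and had negative fold changes in both groups against WT. The other 4 ductal markers, Spp1 among them, had positive fold changes in both. The median over the 6 was 1.96 in PR-SET7_LOBE against WT and 0.78 in DEN_WT against WT. Of the 6, 1 passed the test as higher in each comparison, beside 0.15% and 5.18% of all genes tested. The erythroid markers summed to 2362 and 1485 CPM in WT and to between 239.8 and 1078 in the 6 other libraries, and the stellate cell markers to 67.5 and 81.8 in WT and between 112.6 and 279.5 in the others. In bulk tissue, fewer cells of a type and less RNA per cell cannot be told apart, and the part of these cell types in the results below was not tested. PR-SET7_LOBE 1 stood apart from the other libraries of its group in that its deviations rose with transcript GC content (r = 0.62 across all genes tested, as a description). Setd8, the gene of PR-SET7, did not pass the test in PR-SET7_LOBE against WT (log2 fold change -0.01, edgeR adjusted p = 0.994). A count of the whole gene in whole liver does not check a deletion of part of it in hepatocytes.

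The DEN_WT libraries also stood apart in where their counts fell. Many oxidative phosphorylation genes have processed pseudogenes, intronless copies of the messenger RNA inserted elsewhere in the genome. A blastn search of coding sequences found 83 copies of 41 members with a row of their own in the table, of which 82 were annotated as pseudogenes and 1 (Gm11273, of Cox5b) as protein coding. Near-identical copies (95% identity over 80% of the coding sequence) were a planned search, and the looser search that gave all 83 (80% over 50%) was chosen after seeing the data. The copies held 724 and 1720 counts in WT. They held between 576 and 965 in the PR-SET7_LOBE libraries, and 8727 and 12174 in DEN_WT. As a share of the counts of members and copies together this was 0.855% and 1.36% for WT, 0.707% to 1.55% for PR-SET7_LOBE, and 13.0% and 17.0% for DEN_WT. In 35 of the 41 members the copies' share was higher in both DEN_WT libraries than in every other library, and in 10 it was over 50% in both. The same held beyond these genes: of 1292 pseudogene rows tested, 408 were called higher in DEN_WT than in WT, of 900 genes called higher in all. Why the copies held more counts in DEN_WT was not tested. The submitters' processing notes name tools and a build, but not how reads with more than 1 hit were treated. The DEN_WT samples carry sample numbers apart from those of the others, and the labels name no batch. A difference in sequencing or mapping between DEN_WT and the other libraries could not be told apart from the treatment. The members called in DEN_WT against WT are given with and without the counts of the copies, and a sum with copies may count a read with several hits more than once. Gm10175 and Gm10231, both 100% identical to the coding sequence of Atp5g2, lie on different chromosomes. Each held 12 and 39 counts in WT, and in DEN_WT they held 209 and 300, and 191 and 272. Whether the same reads were counted at both places was not tested.

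**Figure D1:**
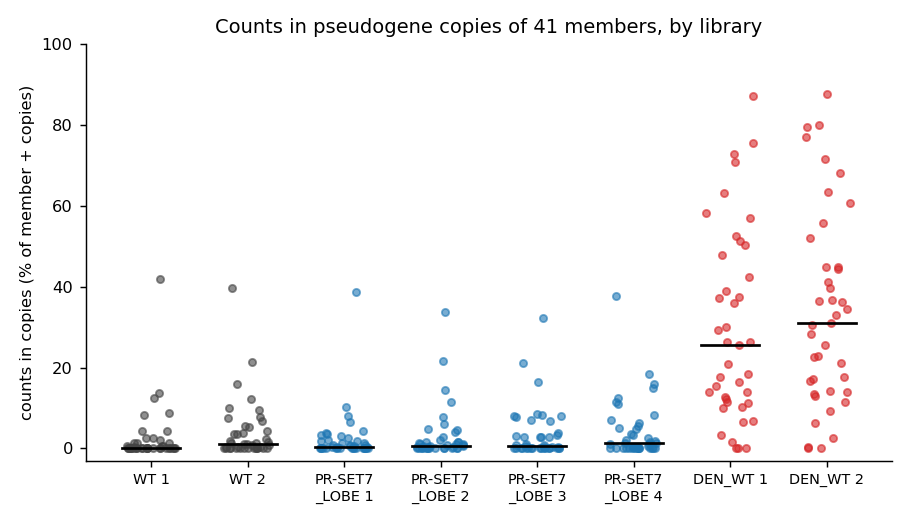
Counts in pseudogene copies as a percentage of the counts of a member and its copies together (vertical axis), by library (horizontal axis). Each dot is 1 of 41 members with a copy in the table, and the black bar is their median. The members spread up to 87.2% and 87.6% in the 2 DEN_WT libraries and reach at most 41.9% in the 6 others.

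These 3 pairs set such a copy beside its gene, from the nearest of them (Atp5h) to one found only by the looser search (Ndufb2). Each line gives the first 120 bases of the coding sequence of a member, or the matching bases of its copy, from GENCODE M21 transcripts, with the bases at which the 2 differ in capitals. They are shown because the calls of these 3 members in DEN_WT turned on the copies.
Ndufb2: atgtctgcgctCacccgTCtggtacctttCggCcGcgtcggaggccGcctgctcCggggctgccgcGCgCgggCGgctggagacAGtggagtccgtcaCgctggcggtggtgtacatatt
Gm13186: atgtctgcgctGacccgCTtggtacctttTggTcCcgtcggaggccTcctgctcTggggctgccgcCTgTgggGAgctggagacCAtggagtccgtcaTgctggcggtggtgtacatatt
Atp5o: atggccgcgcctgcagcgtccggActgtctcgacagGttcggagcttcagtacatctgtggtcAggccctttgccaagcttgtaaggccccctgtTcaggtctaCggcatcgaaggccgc
Gm5436: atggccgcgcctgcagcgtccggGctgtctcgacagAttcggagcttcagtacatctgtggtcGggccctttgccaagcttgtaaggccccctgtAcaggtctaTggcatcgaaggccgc
Atp5h: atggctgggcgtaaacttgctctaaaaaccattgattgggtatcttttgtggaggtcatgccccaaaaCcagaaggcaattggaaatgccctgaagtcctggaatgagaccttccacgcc
Gm10250: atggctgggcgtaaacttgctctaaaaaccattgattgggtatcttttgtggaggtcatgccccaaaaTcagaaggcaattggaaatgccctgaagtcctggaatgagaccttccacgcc
The stretches differed at 16 bases for Ndufb2 and Gm13186, 5 for Atp5o and Gm5436, and 1 for Atp5h and Gm10250. Over the whole match, identity was 92.1%, 97.0% and 99.0%. In the mm9 coordinates of the deposited table, Gm13186 lies at chr2:3448557-3448872 (plus strand), Gm5436 at chr12:85599282-85599923 (minus) and Gm10250 at chr15:5070653-5071135 (minus).

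Of the 87 members, 80 passed the filter on low counts. The 7 that did not were Cox4i2, Cox6a2, Cox6b2, Cox7a1, Cox7b2, Cox8b and Cox8c, isoforms of complex IV subunits known from muscle, lung or testis. None of these 7 exceeded 1.09 CPM in any library, where 3 counts, the limit that a count of 0 allows, were 0.265 to 0.287 CPM. The 8 striated muscle markers summed to between 8.73 and 25.8 CPM in WT and PR-SET7_LOBE, and to 1.24 and 1.77 in DEN_WT. Among the isoform pairs, the widely expressed partner was the one at the higher level, though Cox4i2 had 3 to 9 counts in each library. Cox4i1 lay between 72.9 and 336 CPM, Cox6a1 between 119.9 and 505, Cox7a2 between 9.47 and 33.6 and Cox8a between 61.2 and 131. Per kilobase of transcript, the highest mean levels in WT were those of Cox6a1 (766 CPM per kilobase), Atp5b (708) and Uqcrq (581). The median member of complex V stood at 226 CPM per kilobase in WT, against 138 for complex III, 139 for complex IV and 51.5 for complex I.

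The first comparison asks what inactivation of PR-SET7 does to these genes. In PR-SET7_LOBE against WT none of the 80 members passed the test of edgeR at an adjusted p under 0.05, at a background of 0.248% of all genes tested called in either direction (0.15% higher and 0.0979% lower). At an unadjusted p under 0.05 there were 14 members lower (17.5%) and 0 higher, against 6.08% lower and 11.1% higher of all genes. DESeq2 called 1 member lower and limma voom 3, where they called 1.52% and 1.46% of all genes lower. The median log2 fold change over the 80 was -0.58, against 0.11 over all genes tested, and 69 of 80 values were negative. By complex the medians were -0.54 (I), -0.50 (III), -0.66 (IV) and -0.64 (V), and -0.11 for the 8 members that are not subunits. In 20 members all 4 PR-SET7_LOBE libraries lay below both WT libraries, at a background of 10.5% of all genes tested, and in 0 members above, at a background of 11.6%.

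Differences within the group were as wide as this shift. The median of the members' log2 differences from the WT mean was -0.27 and 0.27 in the 2 WT libraries, -0.38 and -0.25 in PR-SET7_LOBE 1 and 2, and -1.02 and -0.70 in PR-SET7_LOBE 3 and 4. PR-SET7_LOBE 1 and 2 lay near WT 1, and PR-SET7_LOBE 3 and 4 below both WT libraries. This split depended on the scaling, with TMM factors of 0.76 and 0.674 in WT and 0.876, 1.04, 1.48 and 1.24 in PR-SET7_LOBE. As a share of unscaled library totals, the members held 0.611% and 0.772% in WT. For PR-SET7_LOBE 1 to 4 the shares were 0.664%, 0.778%, 0.7225% and 0.690%. By that measure PR-SET7_LOBE 3 and 4 lay between the 2 WT libraries. Without WT 2 the median fold change was -0.12, and without PR-SET7_LOBE 1 edgeR called 9 members lower, with 6.54% of all genes then called lower and 7.41% higher. With library totals in place of TMM the median moved to 0.10 and that of all genes to 0.79, so the members' distance from all genes was -0.70 against -0.69. With copies added the median was again -0.58.

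The members with the lowest fold changes were Ndufab1, Ndufb2, Ndufa12, Cox6b1 and Ndufb6. Ndufab1, the mitochondrial acyl carrier protein, was at 18.2 and 120.2 CPM in WT and at 21.7, 37.2, 18.3 and 11.9 in PR-SET7_LOBE (log2 fold change -1.64 ± 0.61 SE, adjusted p = 0.236). One WT library carried that difference, and without WT 2 the value was 0.37. Atp5o, in the peripheral stalk of ATP synthase, had the smallest p among the subunits (0.00524, adjusted p = 0.158), at 44.5 and 63.4 CPM in WT and 28.1, 26.2, 16.5 and 21.3 in PR-SET7_LOBE. The groups did not overlap for Atp5o. Ndufa12, an accessory subunit of the matrix arm of complex I, was likewise lower in all 4 mutant libraries (12.2, 20.4, 7.71 and 8.29 CPM) than in WT (28.6 and 34.02), with an adjusted p of 0.173. At the other end stood Ndufc2, of the membrane arm of complex I, and Atp5e, the epsilon subunit of the F1 head. Ndufc2 was at 9.09 and 8.02 CPM in WT and 28.6, 19.7, 7.05 and 10.8 in PR-SET7_LOBE, so the groups overlapped (0.95 ± 0.53, adjusted p = 0.367). Ndufa4, which sits on complex IV despite its name, is the common form of that pair. Ndufa4l2, the isoform known for its induction by hypoxia, was at 9.49 CPM in PR-SET7_LOBE 1 and at most 2.21 in every other library.

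**Figure D2:**
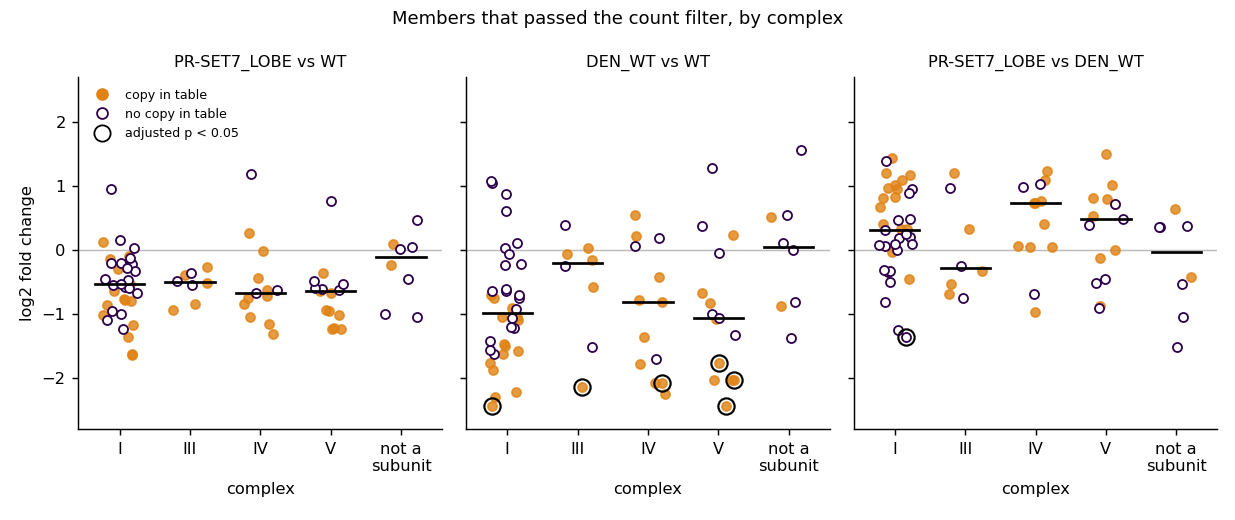
Log2 fold changes (vertical axis) of the 80 members that passed the count filter, by complex (horizontal axis), in the 3 comparisons. Filled orange dots have a pseudogene copy in the table, open dots have none, large rings mark an adjusted p under 0.05 and black bars are medians. All 6 ringed members in DEN_WT against WT are orange, and the single one in PR-SET7_LOBE against DEN_WT, Ndufb5, is open.

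The second comparison asks what differs in livers of mice given DEN in infancy. In DEN_WT against WT edgeR called 6 of the 80 members lower and 0 higher, at backgrounds of 4.54% lower, 5.18% higher and 9.73% in either direction over all genes tested. They were Ndufb2 of complex I, Uqcrq of complex III, Cox6b1 of complex IV, and Atp5j2, Atp5h and Atp5o of complex V. All 6 belonged to the 41 members with a copy in the table. The median log2 fold change was -0.82 over all 80 members, against 0.06 over all genes. It was -1.09 over those 41 members and -0.24 over the 39 tested members with no copy. In PR-SET7_LOBE against WT the same 41 and 39 members had medians of -0.76 and -0.49. With all copies added, the median over all members in DEN_WT against WT was -0.61, and that of all genes again 0.06. With near-identical copies added to their members 4 calls were left, Atp5j2, Uqcrq, Cox6b1 and Ndufb2, and with all copies added 2, Atp5j2 and Uqcrq. The 2 contrasts with WT use the same WT libraries, so their values are not independent.

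Atp5j2, the f subunit in the membrane part of ATP synthase (chr5:145944567-145952931, minus strand, mm9), was at 179 and 258 CPM in WT, 157, 146, 71.3 and 83.3 across PR-SET7_LOBE, and 46.7 and 34.4 for DEN_WT. Both DEN_WT libraries lay below the 6 others. The log2 fold change against WT was -2.43 ± 0.52 (SE, adjusted p = 0.0165), and -2.28 with copies added (adjusted p = 0.0209). Uqcrq, a small subunit of complex III (chr11:53241424-53244333, minus), was at 189 and 281 CPM in WT, 184, 156, 60.5 and 89.3 across PR-SET7_LOBE, and 53.8 and 52.5 for DEN_WT. Again DEN_WT lay below every other library. The fold change was -2.15 ± 0.56 (adjusted p = 0.0373), and -2.12 with copies added (adjusted p = 0.0399).

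Cox6b1, which lies on the intermembrane side of cytochrome c oxidase (chr7:31401993-31411170, minus), was at 62.5 and 36.6 CPM in WT, 16.5, 18.6, 12.4 and 32.5 across PR-SET7_LOBE and 10.7 and 12.8 for DEN_WT. DEN_WT and PR-SET7_LOBE overlapped, and both lay below WT. The fold change of DEN_WT against WT was -2.07 ± 0.52 (adjusted p = 0.0310), and with the copy Gm12736 added, which only the looser search found, it was -1.68 (adjusted p = 0.0658).

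The other 3 calls turned on the copies more strongly. Ndufb2, of the membrane arm of complex I (chr6:39542573-39553381, plus), was at 14.2 and 29.5 CPM in WT and 3.72 and 4.33 in DEN_WT (-2.44 ± 0.68, adjusted p = 0.0478). Its copy Gm13186 had 0 and 3 counts in WT, at most 2 across PR-SET7_LOBE, and 285 and 347 for DEN_WT. Gm13186 was found only by the looser search, so with near-identical copies alone Ndufb2 stayed called (-2.44, adjusted p = 0.0481). With Gm13186 added, Ndufb2 stood at 28.9 and 34.98 CPM in DEN_WT and the fold change was 0.54 (adjusted p = 0.587). Atp5o (chr16:91684643-91931932, minus) was at 19.3 and 12.4 CPM in DEN_WT (-1.76 ± 0.44, adjusted p = 0.0301). Its copy Gm5436 held 70.7% and 77.1% of the joint counts in DEN_WT, 37.6% in PR-SET7_LOBE 4 and at most 2.73% elsewhere. With Gm5436 added the fold change was 0.13 (adjusted p = 0.867). Atp5h, the d subunit of the peripheral stalk (chr11:115277003-115281276, minus), was at 132 and 151 CPM in WT and 41.0 and 28.4 in DEN_WT (-2.03 ± 0.55, adjusted p = 0.0424). With copies added it was at 97.8 and 89.1 CPM in DEN_WT, still below WT, and no longer passed the test (-0.65, adjusted p = 0.419). Atp5o overlaps 3 genes on its own strand and 4 on the other in the table, and Ndufb2 overlaps 1 and 2, so their counts are uncertain in this respect too.

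**Figure D3:**
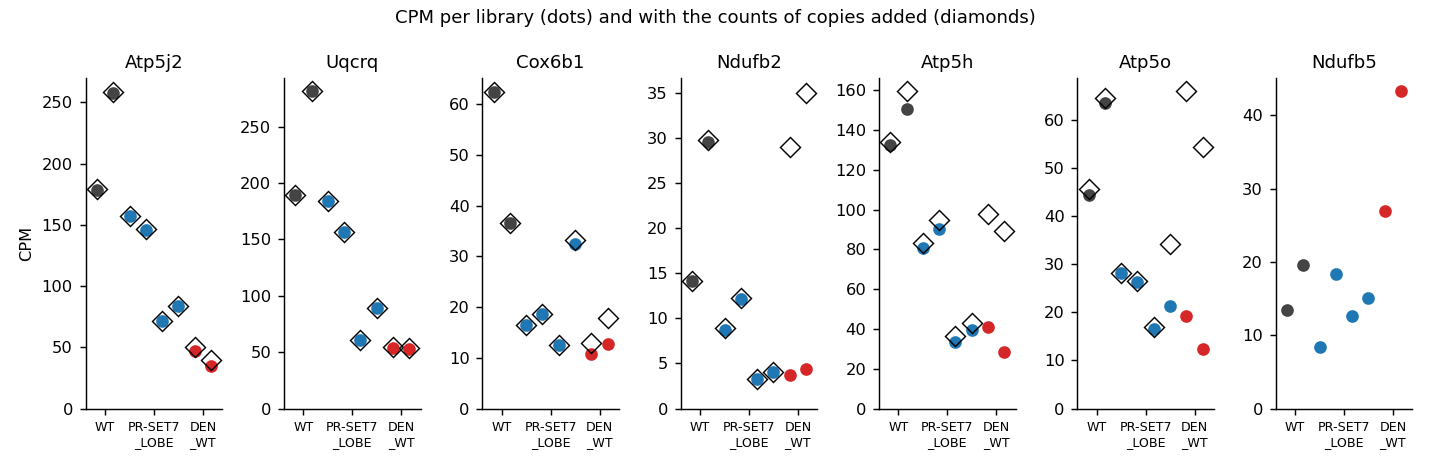
CPM (vertical axis, separate scale per panel) of the 7 members called in any comparison, with 1 dot per library in the groups WT, PR-SET7_LOBE and DEN_WT (horizontal axis). Diamonds show the same libraries with the counts of pseudogene copies added. For Ndufb2, Atp5h and Atp5o the diamonds of DEN_WT leave the dots, whereas for Atp5j2 and Uqcrq they stay at or below 50.02 and 54.6 CPM.

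Leaving out a WT or DEN_WT library left 1 library in its group, so only medians are given for these fits. Without WT 1, WT 2, DEN_WT 1 and DEN_WT 2 the members had -0.96, -0.46, -0.81 and -0.87. All genes had 0.17, 0.25, 0.04 and 0.04. The 6 calls did not hold throughout these fits. The other tools called more members lower, 22 with DESeq2 and 36 with limma voom, on counts without the copies, and also more of all genes (7.57% and 17.5% lower). A correction for GC content kept 5 of the 6 calls, all but Ndufb2, among 8 in all. With it, 5.69% of all genes were called higher and 5.92% lower. Across the 80 members the fold change of DEN_WT against WT fell with transcript GC content (r = -0.44, as a description across genes of the same libraries), and over all genes r was -0.31.

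The complexes differed in this comparison by their medians, -0.99 for complex I, -0.20 for complex III, -0.80 for complex IV and -1.07 for complex V. Part of that order went with the copies. With copies added, complex V stood at -0.42. Among subunits with no copy the medians were -0.64 over 21 subunits of complex I, -0.24 over 3 of complex III, 0.07 over 3 of complex IV and -0.52 over 6 of complex V. The difference between complexes was not tested, since subunits share libraries. Among the subunits with no copy, Ndufv1, which binds NADH at the tip of complex I, was lowest in DEN_WT relative to its error, at 156 and 312 CPM in WT, 135, 99.7, 91.9 and 113 across PR-SET7_LOBE and 78.9 and 80.1 for DEN_WT (-1.56 ± 0.45, adjusted p = 0.0541). DEN_WT lay below all other libraries for Ndufv1, and PR-SET7_LOBE below WT. Cox6a1, with -1.70 ± 0.59 (adjusted p = 0.0893), and the complex III core protein Uqcrc1, with -1.51 ± 0.52 (adjusted p = 0.0856), did not pass either. The catalytic beta subunit Atp5b had -1.33 ± 0.47 (adjusted p = 0.0945), and the alpha subunit Atp5a1 -0.998 ± 0.56 (adjusted p = 0.261).

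Of the members with a copy, Cox5a and Cox5b, which surround the catalytic core of complex IV, came close to the threshold. Cox5a was at 25.4 and 62.3 CPM in WT, 14.7, 42.7, 10.2 and 11.2 across PR-SET7_LOBE and 9.92 and 8.48 for DEN_WT (-2.25 ± 0.72, adjusted p = 0.0721), and with all copies added the value was -0.19, though -2.25 with near-identical ones. Cox5b had -2.08 ± 0.60 (adjusted p = 0.0519), and -0.91 with copies added. Ndufb8, of the membrane arm of complex I, kept most of its difference, with -2.21 ± 0.71 (adjusted p = 0.0712) and -2.02 with copies added.

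Core subunits did not all lie on 1 side. Ndufs1, the largest iron-sulphur subunit of complex I, was at 23.5 and 39.0 CPM in WT, 14.3, 35.01, 27.2 and 31.9 across PR-SET7_LOBE and 50.2 and 45.4 for DEN_WT (0.61 ± 0.47, adjusted p = 0.411). Both DEN_WT libraries lay above all others for Ndufs1, opposite to Ndufv1 of the same arm. Uqcrfs1, the Rieske iron-sulphur protein of complex III, overlapped between groups, at 98.9 and 169 CPM in WT and 104.8 and 121 in DEN_WT (-0.24 ± 0.48, adjusted p = 0.763). Cox4i1, which has 1 copy in the table, had -0.81 ± 0.57 (adjusted p = 0.369). Cox7a2l, which takes part in joining complexes III and IV, was at 142 to 208 CPM in all 8 libraries, with log2 fold changes of 0.26, 0.22 and 0.04 in the 3 comparisons. Its copies held 11.1% and 33.0% of the joint counts in DEN_WT and 1.59% to 13.7% elsewhere, and with them added the values were 0.17, 0.38 and -0.21.

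Some members stood at the other end in DEN_WT, without passing the test. Atp5s, which is not a stable subunit, had 1.56 ± 0.63 (adjusted p = 0.131), Atp5e 1.28 ± 0.49 (adjusted p = 0.120), Ndufb5 1.08 ± 0.47 (adjusted p = 0.157) and Ndufa1 1.05 ± 0.68 (adjusted p = 0.325). In 9 members both DEN_WT libraries lay above both WT libraries, at a background of 37.8%, and in 52 below, at a background of 33.3%.

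Within ATP synthase the make-up of the counts differed between libraries. The c ring protein is encoded by Atp5g1, Atp5g2 and Atp5g3, which yield the same mature protein from different precursors. Atp5g1 held 56.1% (95% exact binomial interval 55.0 to 57.3) and 40.0% (39.0 to 41.1) of the counts of these 3 genes in WT. In PR-SET7_LOBE it held 36.6%, 49.2%, 17.8% and 16.3%, and in DEN_WT 18.3% and 20.8%. PR-SET7_LOBE 3 and 4 thus lay with DEN_WT, and PR-SET7_LOBE 1 and 2 near WT. With copies added the share was 24.3% and 29.4% in DEN_WT, and 41.3% in WT 2. The intervals cover counting error only, since reads carried no molecular identifiers. By gene, Atp5g1 was at 365 and 326 CPM in WT, 166, 317, 58.3 and 45.5 across PR-SET7_LOBE and 73.1 and 95.9 for DEN_WT, and Atp5g3 at 233 and 420, then 228, 272, 228 and 205, then 301 and 335. The log2 fold change of Atp5g1 was -1.24 ± 0.65 in PR-SET7_LOBE against WT (adjusted p = 0.342) and -2.03 ± 0.81 in DEN_WT against WT (adjusted p = 0.129), and that of Atp5g3 was -0.49 and -0.04. Copies held 37.4% and 44.5% of the joint Atp5g1 counts in DEN_WT, and with all copies added Atp5g1 had -1.30 in DEN_WT against WT (adjusted p = 0.296). Neither gene passed the test.

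The ratio of Atp5e to Atp5b counts was chosen after the values were seen, because these 2 subunits of the same F1 head differed in direction. It was 0.106 and 0.0960 in WT, 0.149, 0.226, 0.269 and 0.437 across PR-SET7_LOBE, and 0.615 and 0.612 for DEN_WT. The 3 groups did not overlap. Atp5e was at 114 and 158 CPM in WT, 156, 189.5, 217 and 363 across PR-SET7_LOBE and 322 and 338 for DEN_WT. Neither gene has a copy in the table, but Atp5b overlaps 3 genes on its own strand there. Over whole complexes the proportions moved less: the ratio of complex V to complex I counts was 1.51 and 1.90 in WT, 1.22 to 2.14 across PR-SET7_LOBE and 2.03 and 1.96 for DEN_WT.

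**Figure D4:**
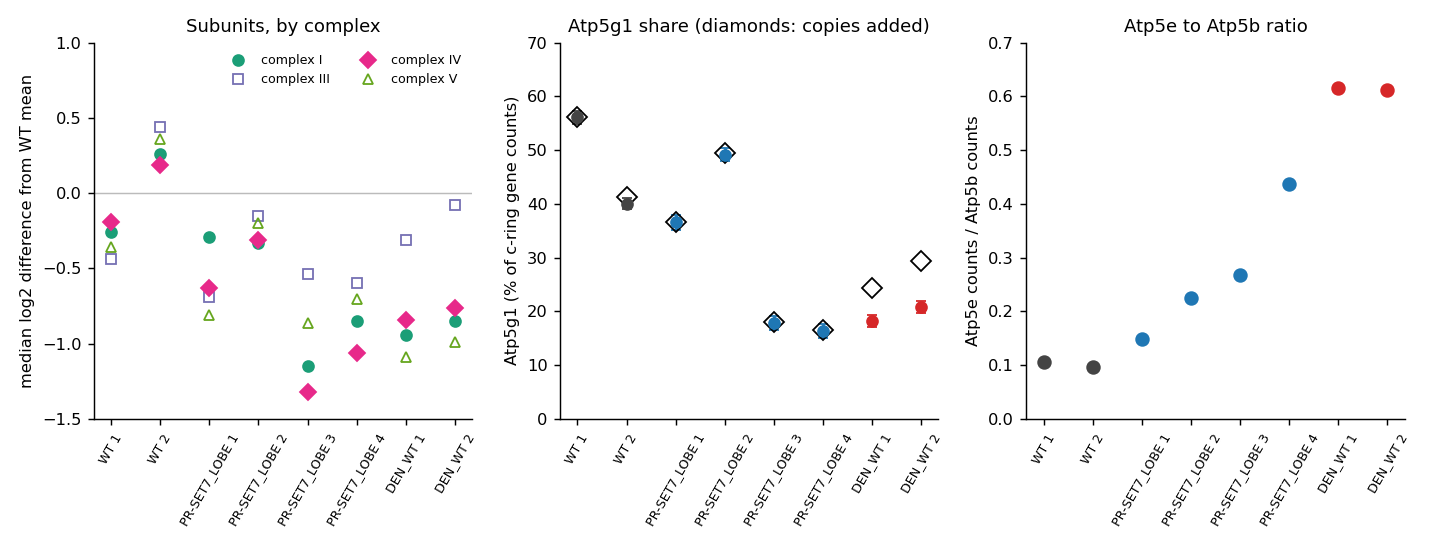
Left, the median log2 difference from the WT mean of the subunits of each complex in each library. Middle, Atp5g1 as a percentage of the counts of the 3 c ring genes, with 95% exact binomial intervals and diamonds for values with pseudogene copies added. Right, the ratio of Atp5e to Atp5b counts, which runs from 0.0960 in WT to 0.615 in DEN_WT.

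The third comparison sets PR-SET7_LOBE and DEN_WT against each other, and shares its libraries with the other comparisons. One of 80 members was called lower in PR-SET7_LOBE and 0 higher, at backgrounds of 6.26% lower and 4.82% higher. Of the 1087 genes called lower 669 were pseudogene rows, and of the 837 called higher 41 were. Without pseudogene rows, a setting chosen after seeing the data, the backgrounds were 2.16% lower and 3.85% higher. There 0 members were called. The member called in the main fit was Ndufb5, of the membrane arm of complex I (chr3:32635912-32650488, plus), at 8.45, 18.4, 12.6 and 15.03 CPM across PR-SET7_LOBE and 26.9 and 43.3 for DEN_WT (log2 fold change -1.37 ± 0.39, adjusted p = 0.0458). WT lay at 13.5 and 19.6 CPM, within the range of PR-SET7_LOBE or just above it. Ndufb5 has no copy in the table and overlaps Mrpl47 on the opposite strand. It lost the call under 11 of 24 other settings, among them each fit that left out a WT or a DEN_WT library. The median over all members was 0.33 against 0.18 over all genes tested. With all copies added the 2 medians were 0.07 and 0.18, so that the members lay below all genes. They were 0.06 and 0.04 with voom, and 0.11 and 0.09 without PR-SET7_LOBE 1. By complex the medians were 0.32 (I), -0.29 (III), 0.74 (IV) and 0.48 (V). With copies added they were 0.05 for complex IV and -0.50 for complex V, and Ndufb2 and Atp5l were then called lower as well.

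Genes around the complexes were read in the same fit, and copies of these genes were not searched for. Ppargc1a was at 40.2 and 61.3 CPM in WT, 31.0, 15.2, 12.2 and 27.2 across PR-SET7_LOBE, and 6.29 and 6.62 for DEN_WT. The 3 groups did not overlap. Ppargc1a fell in DEN_WT against WT (log2 fold change -2.97 ± 0.54, adjusted p = 0.0077) and was higher in PR-SET7_LOBE than in DEN_WT (1.73 ± 0.47, adjusted p = 0.0395), and in PR-SET7_LOBE against WT it did not pass (-1.24 ± 0.41, adjusted p = 0.197). Without DEN_WT 1 or DEN_WT 2 the adjusted p against WT was 0.0775 or 0.0882, and the difference between PR-SET7_LOBE and DEN_WT lost its call without any 1 library of WT or DEN_WT and without PR-SET7_LOBE 4. The other 9 biogenesis regulators included no called gene. Ppara, a regulator of fatty acid oxidation, was at 197 and 181 CPM in WT and 68.6 and 69.1 in DEN_WT (-1.46 ± 0.43, adjusted p = 0.0563). Esrra had -1.505 ± 0.66 in DEN_WT against WT (adjusted p = 0.163), Ppargc1b -2.23 ± 0.88 (adjusted p = 0.128), and Nrf1, Gabpa and Tfam lay between -0.05 and 0.97.

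No gene of these other lists was called in PR-SET7_LOBE against WT. In DEN_WT against WT 1 of 26 assembly factors fell, Cox11, which delivers copper to complex IV (4.40 and 3.96 CPM in WT, 0.443 and 0.618 in DEN_WT, -2.95 ± 0.80, adjusted p = 0.0417). Of 75 mitochondrial ribosomal proteins 1 fell, Mrpl12 (77.1 and 64.3 CPM in WT, 10.01 and 9.54 in DEN_WT, adjusted p = 0.0305). With 4.54% of all genes called lower, nothing is read from these counts about either list. Of 9 genes of the glycolysis switch and uncoupling 1 fell, Pdk1, a kinase that holds pyruvate dehydrogenase inactive. Pdk1 was at 114 and 166 CPM in WT and 38.1 and 49.9 in DEN_WT (edgeR adjusted p = 0.0304). None of the 4 genes of complex II, 15 of the TCA cycle, 10 of mitochondrial DNA maintenance or 9 carriers passed. The median of complex II was 0.16 in DEN_WT against WT, and Sdha, its flavoprotein, had 0.13 ± 0.43. In PR-SET7_LOBE against DEN_WT, 1 of 10 genes of coenzyme Q synthesis (Coq7) and 1 of 75 mitochondrial ribosomal proteins (Mrpl30) were higher. So were 3 of 9 genes of the glycolysis switch and uncoupling (Hk2, Pdk4 and Pkm2). Among 26 assembly factors 1 was lower, Tmem126b of complex I. Of all genes tested, 4.82% were called higher and 6.26% lower, and nothing is read from these counts about the lists. Hexokinase 2, encoded by Hk2, was at 10.1, 9.28, 25.7 and 10.4 CPM in PR-SET7_LOBE against 1.77 and 1.41 in DEN_WT (3.12 ± 0.65, adjusted p = 0.0109).

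The promoters of the members were searched for the known motifs of this regulation. RefSeq windows of the GRCm38.p6 build, from 250 bases before to 50 after a start, were found for 71 members and 27025 genes and searched on both strands. The palindromic NRF1 motif was in 8.45% of members and 1.07% of genes, the ETS letters bound by GABP, CCGGAAG, in 21.1% and 9.93%, and the YY1 letters AAGATGGC in 15.5% and 3.19%. The estrogen-related receptor letters CAAGGTCA were in 4.23% and 1.76%, and CCAAT in 45.1% and 41.1%. A match is a description and not a bound site. The promoter of Atp5e, the subunit with the highest fold change in DEN_WT against WT, is shown with its matches in capitals (1 to the ETS letters and 2 to CCAAT, on either strand) at chr2:174464106-174464351, minus strand, ending 4 bases before the start.
Atp5e: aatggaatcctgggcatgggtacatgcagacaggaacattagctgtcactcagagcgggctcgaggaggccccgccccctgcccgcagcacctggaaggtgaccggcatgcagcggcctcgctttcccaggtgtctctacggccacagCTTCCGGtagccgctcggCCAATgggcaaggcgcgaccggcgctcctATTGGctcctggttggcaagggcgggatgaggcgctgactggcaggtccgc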

How the data were processed

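Messenger RNA of 8 mouse liver libraries was isolated on oligo(dT) beads and read on an Ion Proton, per the labels' protocols. The authors deposited 1 table of whole-number counts for each gene and library. The submitters' processing notes name TopHat2 2.0.9, Cufflinks, DESeq and the mm9 build. Which tool counted, with which annotation and strand setting, and how reads with more than 1 hit were treated: not given in the sources used here. Library totals ranged from 7305595 to 16108081 counts.

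All 8 libraries entered 1 fit of edgeR 4.0.16 (R 4.3.3; TMM, filterByExpr by group, robust quasi-likelihood test, group as the only term), which tested 17362 genes with a common biological coefficient of variation of 0.479. P-values were adjusted by Benjamini-Hochberg over all of them, and rise or fall is written only at an adjusted p under 0.05. DESeq2 1.42.0 and limma 3.58.1 (voom) were alternatives, besides other scalings, filters, offsets, a replicate block and each library left out. CPM are edgeR's cpm with TMM-scaled totals, and log2 values used a prior count of 2. The fit was tested on simulated data.

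Transcript length and GC content came from GENCODE M21, which is on a later build. Its coordinates were not set against those of the deposited table. They served only to cut out coding sequences and to keep annotated exons out of the printed promoter. Identifiers matched for 87.4% of the genes of the table and for all 87 members. Copies were found with blastn 2.17.0 on 86 coding sequences, at 95% identity over 80% of the coding sequence, and, chosen after seeing the data, at 80% over 50% for annotated pseudogenes. Promoter sequences are RefSeq's.

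The members and lists were chosen with earlier results of these data known. Named with values were core subunits, isoform pairs, in each comparison the 3 members per complex with the smallest p and the 5 highest and 5 lowest above a mean log2 CPM of 1, and from each other list the 2 with the smallest p, besides 10 regulators and related genes. Those with nothing to add to the counts are summarised. Same-numbered libraries of different groups did not deviate together (r between -0.009 and 0.165), so their numbers were not taken as pairs.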

Additional observations from a re-analysis of the deposited data

Results flagged for a closer look

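Among the 4 PR-SET7_LOBE libraries, 13 of 104 levels checked had 1 library far from the other 3, judged by its gap to the nearest other library as a share of the whole range (Dixon's limit at 95%). The limit is set so that chance flags about 1 in 20 groups of normally distributed values. These levels were not log-transformed and share the same 4 libraries, so 13 of 104 cannot be set against that rate. PR-SET7_LOBE 1 was the high library in 8 of them. There Atp5b stood at 1047 CPM against 808 to 839 in the other 3 (gap over range 0.870), Atp5sl at 59.7 (0.843), Cox4nb at 33.2 (0.847), Ndufa4l2 at 9.49 (0.894) and Cox4i2 at 0.845 (0.942). The level of Cox4i2, which did not pass the count filter, rests on 9 counts in PR-SET7_LOBE 1 and 5 in each of the other 3. Outside the members, Esrra was at 77.1 CPM (0.901), Polrmt at 74.7 (0.866) and Cox10 at 28.7 (0.871) in PR-SET7_LOBE 1. This is the library whose deviations rose with GC content, and the part of that in these levels was not tested. PR-SET7_LOBE 2 was high for Cox5a with 42.7 CPM (0.863), Cox7b with 29.7 (0.876) and the muscle form of the ATP/ADP carrier, Slc25a4, with 87.0 (0.872). PR-SET7_LOBE 3 was high for Hk2 with 25.7 CPM (0.933) and Atpif1, the inhibitor of ATP synthase, with 22.4 (0.845).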

How the results depend on the processing

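Values below are members called or median log2 fold changes, and where they moved the cause was not tested unless the setting itself shows it.
For PR-SET7_LOBE against WT, DESeq2 called 1 member lower and voom 3, and library totals gave medians of 0.10 (all), 0.08 (I), 0.27 (III), -0.04 (IV) and 0.06 (V), with Uqcrc1 at 0.12 and Cox4nb at 0.14. Ndufa2 was -0.25 with voom.
For DEN_WT against WT, members called lower numbered 22 with DESeq2, 36 with voom, 12 with no filter, 33 with only these 2 groups, 20 with a length offset, 2 with library totals, and, chosen after seeing the data, 2 with all copies added and 3 without pseudogene rows. The share of all genes called lower moved too, against 4.54% in the main fit. It was 3.12% with no filter, 7.57% with DESeq2, 17.5% with voom and 16.8% with only these 2 groups. With the length offset it was 5.34%, with library totals 2.86%, with all copies added 4.48% and without pseudogene rows 3.92%. Members called higher numbered 1 with DESeq2 and library totals, and 3 with voom and with only these 2 groups. Of all genes, 10.5%, 7.84%, 19% and 21% were called higher under these settings in turn. Library totals gave -0.22 (all), -0.38 (I), 0.41 (III), -0.20 (IV), -0.45 (V) and 0.03 for Uqcr10. The length offset gave -1.17 (all), -0.94 (III) and -1.17 (IV). Complex V was -0.42 with near-identical copies and with all copies, Atp5o 0.13 with both and Ndufb2 0.54 with all.
For PR-SET7_LOBE against DEN_WT, members called higher and lower numbered 3 and 2 with DESeq2, 6 and 7 with voom, 3 and 0 with upper quartiles and with library totals, and 11 and 0 with the length offset. Of all genes, 7.91% were called higher and 8.46% lower with DESeq2, and 14.7% and 15.2% with voom. The shares were 5.37% and 5.39% with upper quartiles, 4.41% and 4.82% with library totals, and 5.47% and 6.47% with the length offset. The strict filter called 1 higher, the GC offset 2 lower, near-identical copies 2 lower and all copies 3 lower, and 0 were lower with only these 2 groups or without pseudogene rows. The strict filter called 5.42% of all genes higher. The shares called lower were 8.02% with the GC offset, 6.16% with near-identical and 6.05% with all copies. They were 6.21% with only these 2 groups and 2.16% without pseudogene rows. Complex IV was 0.33 with voom, 0.08 with near-identical and 0.05 with all copies, and complex V -0.50 with both. The length offset gave 0.66 (all), 0.70 (I), 0.48 (III), 1.27 (IV), 0.15 for Cox8a and 0.46 for Uqcr11, and the GC offset 0.44 for Ndufaf4.
With a replicate block, whose numbers were not shown to pair the libraries, 26 members were called lower in DEN_WT against WT (beside 8.04% of all genes). In PR-SET7_LOBE against DEN_WT 11 were called higher (beside 7.27%), and Ndufa5 was -0.58 in PR-SET7_LOBE against WT. The replicate block with GC and length offsets gave 31 and 15 (beside 9% and 7% of all genes). Its medians were -0.78 (III) and -1.38 (IV) in DEN_WT against WT and 0.73 (I) and 0.32 (III) in PR-SET7_LOBE against DEN_WT. It gave -0.57 for Ndufa5 in PR-SET7_LOBE against WT, -0.24 for Ndufa1 in DEN_WT against WT, and 0.33 for Cox7b, 0.84 for Ndufaf4 and 0.45 for Ndufa1 in PR-SET7_LOBE against DEN_WT.
Leaving out each library in turn gave ranges. In PR-SET7_LOBE against WT these were 0 to 9 called lower, -0.86 to -0.12 (all), -0.90 to 0.20 (III), -0.88 to -0.25 (IV), -1.06 to -0.10 (V), -1.01 to 0.17 for Uqcrc1, -0.08 to 0.39 for Ndufa2, -0.14 to 0.41 for Ndufa5 and -2.44 to 0.37 for Ndufab1. In DEN_WT against WT, with a PR-SET7_LOBE library left out, they were 0 to 2 called higher and 6 to 29 lower. The 29 were without PR-SET7_LOBE 1, where 14.6% of all genes were called higher and 11.9% lower. The 9 called lower in PR-SET7_LOBE against WT came without that library too, beside 6.54% of all genes. With any 1 library left out, the medians in DEN_WT against WT were -0.96 to -0.46 (all), -0.55 to 0.18 (III) and -1.38 to -0.55 (V). In PR-SET7_LOBE against DEN_WT, with a PR-SET7_LOBE library left out, 0 to 2 were called in either direction. Of all genes, 4.04% to 6.93% were then called higher and 5.11% to 8.6% lower. The median of complex V was 0.11 to 0.55 with any 1 library left out. Where 1 library is left in a group, it is assumed to vary like the other groups. Of the other counts and medians, 286 values under settings that kept all libraries and 139 with a library left out moved by less than 1.5 times or 1 SD.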
